A study of Mus musculus with 2 samples.

Results

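Glycolysis and the transcriptional response to low oxygen were followed through 32 genes in single cells sorted from Foxp3Cre-YFP mice. The members were taken by symbol from the 27998 genes of the deposited gene list, and all 32 were found. Of these, 17 encode the glucose and lactate transporters and the enzymes of glycolysis, and 15 encode oxygen sensing proteins or targets of the hypoxia response. The study set 1 library of B16 melanoma, a transplanted mouse tumour line, taken at day 14 against 1 library of lymph node from unchallenged mice. Both came from C57BL/6 mice aged 5 to 8 weeks, and in both Cre recombinase fused to yellow fluorescent protein is made from Foxp3, the locus of the factor that defines regulatory T (Treg) cells. The submitters call these mice wild type, with no further allele or treatment named. The cells had been sorted, but no source used here states the gate or how many mice were pooled.

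Transcripts were read from their 3′ ends and counted once each through a unique molecular identifier (UMI). Cells were barcodes past a UMI minimum of 3834 in tumour and 1811 in lymph node, with at least 200 genes, at most 10% mitochondrial UMIs and few melanoma, macrophage or B cell UMIs, which left 1457 of 1489 barcodes in tumour and 2202 of 2226 in lymph node. They held 16669263 UMIs in tumour and 10681101 in lymph node, at medians of 8766 and 4100 per cell, so the tumour values rest on more counts. Only 1 barcode occurred in both sets. The T cell gene Cd3e had a UMI in 64.9% of tumour cells and 63.8% of lymph node cells at equal depth, and Ikzf2, which encodes the Treg factor Helios, in 81.9% and 56.4%. Foxp3 itself was sparse, at 17.2 UMIs per 1000000 UMIs (CPM) in tumour and 21.9 CPM in lymph node. Other Treg genes went both ways. Tumour over lymph node ratios were 6.46 for Ctla4 and 3.63 for Tnfrsf18. They were 0.954 for Il2ra, 0.702 for Lrrc32, 0.632 for Ikzf4 and 0.595 for Nrp1. The median log2 ratio of the 8 Treg genes was -0.21. Of 4 CD8 T cell markers, Cd8a had 0 UMIs in both tissues, but Cd8b1 had 325 UMIs in tumour and 188 in lymph node. Prf1 had 36 and 3 UMIs, and Gzmk 25 and 1. With 1 library per tissue nothing was tested between them and no p-value is given, and intervals are 95% intervals of counting error only, which leave out variation between cells and mice.

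Glycolysis splits glucose into pyruvate in the cytosol and yields ATP without oxygen, and activated T cells use it during clonal expansion. When oxygen is short, prolyl hydroxylases stop marking the HIF-1α protein for degradation, and the stabilised factor binds hypoxia response elements near genes for glucose transport, glycolysis, mitochondrial turnover and angiogenesis. Several glycolysis genes are also targets of the growth signals that drive cell division, so their transcripts can follow either programme. Treg cells are known for a lower reliance on glycolysis than effector T cells, though proliferating Treg cells take it up.

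The core of the hypoxia response element, written ACGTG or GCGTG, was looked for on both strands (CACGT and CACGC on the other strand, overlaps counted) in the 250 bases before the transcription start of each member, using RefSeq promoters of GRCm38.p6, which is the assembly of the mm10 build used for the counts. It stood in 31 of 40 windows of the 29 members with a promoter entry (77.5%), against 38.6% of all windows of that length and 57.5% of the windows of genes with at least 50 UMIs here. Base composition differs between these sets, at a median of 16.5 CpG dinucleotides per window for the members, 6 for all windows and 16 for the detected genes. Below are 4 of these windows, chosen because Slc16a3 and Bnip3 had the largest ratios between the tissues in their groups, Ldha encodes the lactate-forming enzyme, and Tpi1 had a large ratio and no such motif in its window. Capitals mark the motif.
Bnip3, chr7:138909507-138909756, minus strand: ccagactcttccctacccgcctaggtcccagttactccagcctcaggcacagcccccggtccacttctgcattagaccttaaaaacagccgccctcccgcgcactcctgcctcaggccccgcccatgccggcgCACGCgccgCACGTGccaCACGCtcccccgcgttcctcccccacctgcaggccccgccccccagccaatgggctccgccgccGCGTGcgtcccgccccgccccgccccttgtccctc
Slc16a3, chr11:120948817-120949066, plus strand: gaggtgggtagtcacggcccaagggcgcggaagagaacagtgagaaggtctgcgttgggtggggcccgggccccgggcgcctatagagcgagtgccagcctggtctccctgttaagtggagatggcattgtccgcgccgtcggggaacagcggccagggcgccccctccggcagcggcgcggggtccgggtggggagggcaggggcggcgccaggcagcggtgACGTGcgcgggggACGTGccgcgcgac
Ldha, chr7:46845554-46845803, plus strand: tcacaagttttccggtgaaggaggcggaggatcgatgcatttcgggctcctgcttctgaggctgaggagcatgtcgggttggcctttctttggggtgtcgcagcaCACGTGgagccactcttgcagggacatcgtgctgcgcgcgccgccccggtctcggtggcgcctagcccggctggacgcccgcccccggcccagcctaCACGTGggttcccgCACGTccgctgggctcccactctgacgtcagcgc
Tpi1, chr6:124814159-124814408, minus strand: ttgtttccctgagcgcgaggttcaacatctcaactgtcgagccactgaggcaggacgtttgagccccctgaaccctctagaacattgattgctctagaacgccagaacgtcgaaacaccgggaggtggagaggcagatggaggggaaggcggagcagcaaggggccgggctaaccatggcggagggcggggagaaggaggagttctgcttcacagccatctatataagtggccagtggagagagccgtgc

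Bnip3 had 5 matches, the nearest 35 bases before the start. Slc16a3 had 2 matches, 27 and 14 bases before it, and this window of Ldha had 5, the nearest at 34 bases. In the GENCODE annotation the Tpi1 gene starts at base 124814296, within its window, so part of that window lies inside the annotated gene. The lack of a motif for Tpi1 therefore holds for this window only. The windows of Slc16a3 and Ldha also lie past the GENCODE gene starts, at 120948480 and 46841475. A match in these letters is a description of the window and says nothing of binding in these cells.

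Tumour cells held more transcript of nearly every step of glycolysis than lymph node cells. A tumour level at or above 2-fold that of lymph node was found for 15 of the 17, where 13.2% of all 9976 genes with at least 50 UMIs had one, and 0 were 2-fold lower, where 7.7% of all genes were. Their median log2 ratio was 2.17, against 0.14 over all genes. Together the 17 genes took 1.41% of all UMIs in tumour cells and 0.313% in lymph node cells. In sums over cells of this kind, a different mix of cells and a different level per cell cannot be told apart, so values per cell are given as well.

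The transporters that bring glucose in and lactate out differed most at the exit. Slc16a3, which encodes the lactate exporter MCT4, stood at 150 CPM in tumour (2503 UMIs) and 4.87 CPM in lymph node (52 UMIs), a ratio of 30.8 (23.4 to 41.4), the largest of the 32. The glucose transporter gene Slc2a1 (GLUT1) stood at 62.8 CPM in tumour against 12.4 in lymph node, 5.08-fold higher (4.23 to 6.13). Slc2a3 (GLUT3) was close to the 2-fold line, at 37.5 CPM in tumour and 18.6 in lymph node (2.01, 1.71 to 2.37). The balance within transporter families differed too. Of the UMIs of Slc2a1 and Slc2a3, Slc2a1 made up 62.6% in tumour (60.2 to 64.9) and 39.9% in lymph node (34.6 to 45.4). Slc16a3 made up 92.6% of the UMIs of the lactate carriers Slc16a3 and Slc16a1 in tumour and 36.9% in lymph node.

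In the upper steps, which trap glucose in the cell and split it, Tpi1 stood out. This gene for triosephosphate isomerase reached 915 CPM in tumour and 74.2 CPM in lymph node, 12.3-fold higher (11.5 to 13.2). Hexokinase traps glucose as glucose 6-phosphate, and its inducible form Hk2 stood at 22 CPM in tumour and 2.9 in lymph node (7.59, 5.25 to 11.3), while Hk1, the widely expressed form, stood at 63.9 and 33.9 CPM and missed the 2-fold line at 1.89 (1.67 to 2.13). Hk2 therefore made up 25.6% of the UMIs of the pair in tumour (23.4 to 28) and 7.89% in lymph node (5.42 to 11). Gpi1, the isomerase of the next step, had 695 CPM in tumour and 286 in lymph node, 2.43-fold higher (2.33 to 2.53).

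Phosphofructokinase catalyses the committed step. Its platelet form Pfkp stood at 142 CPM in tumour against 31.6 in lymph node (4.5, 4.01 to 5.05) and its liver form Pfkl at 96.9 against 23.5 (4.13, 3.61 to 4.73). The balance of these forms was alike in both tissues, with Pfkp at 59.5% of the pair's UMIs in tumour and 57.4% in lymph node and overlapping intervals. Pfkfb3, whose product makes the activator of that step, was sparse, with 168 UMIs in tumour and 60 in lymph node, and its ratio of 1.79 (1.33 to 2.45) was the smallest of the 17. Aldoa, the aldolase, reached 1965 CPM in tumour and 327 in lymph node, 6.01-fold higher (5.81 to 6.23).

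In the lower, energy-yielding steps each of the 6 genes exceeded 3-fold in tumour over lymph node. Gapdh, often used as a loading control, stood at 4256 CPM in tumour and 864 CPM in lymph node, 4.93-fold higher (4.82 to 5.03). Pgk1, which makes the first ATP of the pathway, stood at 184 against 42.4 CPM (4.33), and the mutase gene Pgam1 at 466 against 82.5 CPM (5.64). Enolase 1 (Eno1) had the smallest ratio of the 6, at 1167 CPM in tumour and 374 in lymph node (3.12, 3.01 to 3.23). Pkm, the pyruvate kinase of T cells, stood at 1901 against 415 CPM (4.58), where 3′ counting cannot separate its M1 and M2 forms. Ldha, which turns pyruvate into lactate, stood at 1955 CPM in tumour and 535 in lymph node, 3.65-fold higher (3.55 to 3.76). Ldhb, the subunit that favours the reverse reaction, stood at 36.4 against 63.3 CPM, so that Ldha made up 98.2% of the pair's UMIs in tumour (98 to 98.3) and 89.4% in lymph node (88.6 to 90.2). Gapdh, Aldoa, Ldha, Pgk1, Eno1, Tpi1, Pgam1 and Mif have near-identical pseudogene copies in the mouse genome, and how the counting shared reads among them is not given, so their levels are less certain than their intervals show.

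**Figure D1:**
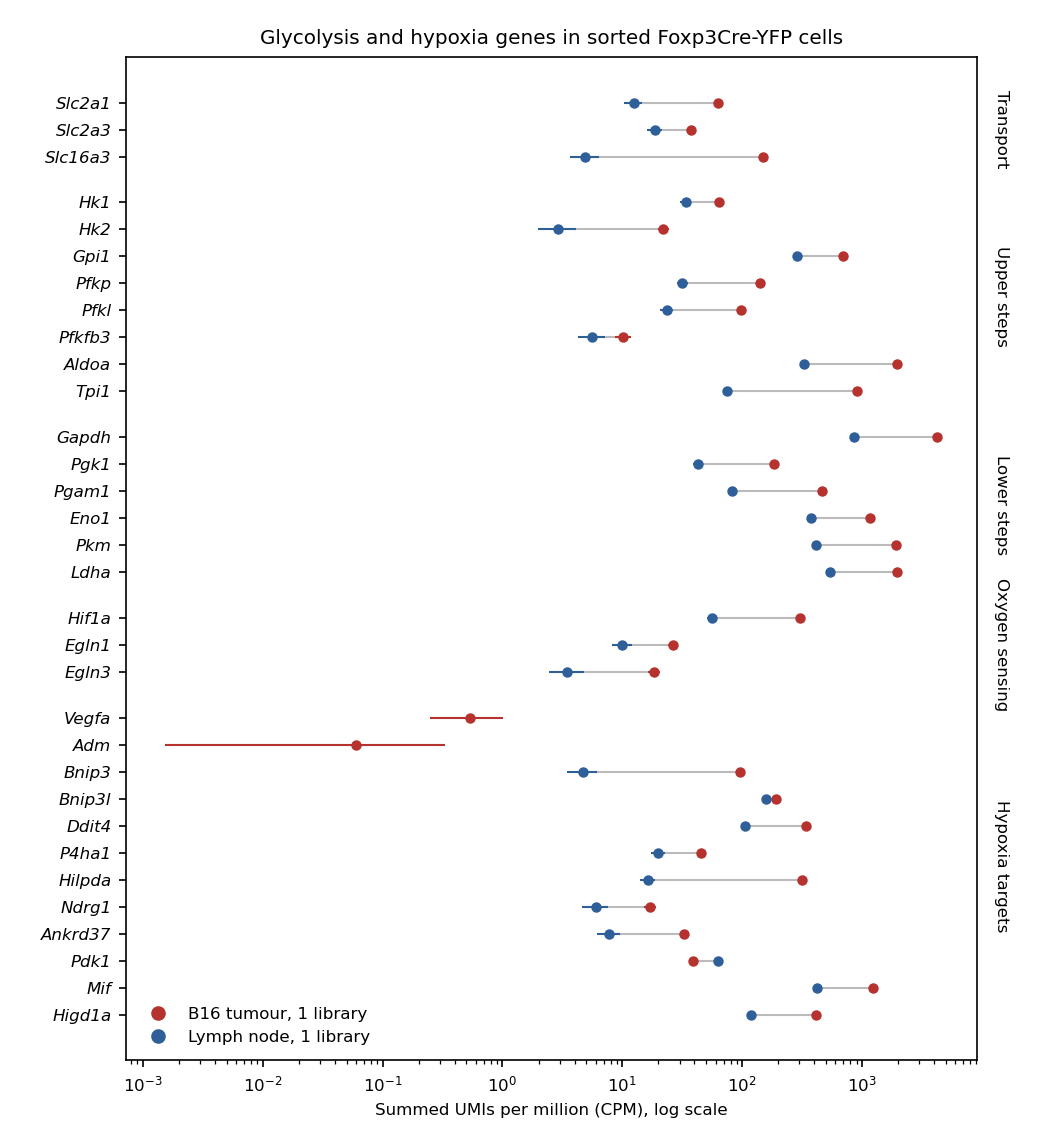
CPM of the summed cells (log axis) of the 32 genes in tumour cells (red) and lymph node cells (blue), by role, with bars for the exact 95% Poisson interval of the sum and 1 library per tissue. Red lies to the right of blue for every glycolysis gene, widest for Slc16a3 at 150 against 4.87 CPM, while Pdk1 lies the other way; Vegfa and Adm had 0 UMIs in lymph node and no blue point.

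Hypoxia genes were less uniform. Here 11 of 15 reached 2-fold in tumour over lymph node, beside the same 13.2% of all genes, and their median log2 ratio was 1.61. Among the sensing genes, Hif1a, which encodes the oxygen-regulated subunit of HIF-1, stood at 305 CPM in tumour and 55.7 in lymph node (5.48, 5.03 to 5.97). The prolyl hydroxylase gene Egln3 stood at 18.4 against 3.46 CPM (5.32, 3.77 to 7.69) and its relative Egln1 at 26.5 against 10 CPM (2.64, 2.13 to 3.29). HIF-1α is controlled mainly at the protein level, which these counts do not measure.

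Bnip3 and Hilpda had the largest ratios of the targets. Bnip3, a mitophagy receptor, reached 95.6 CPM in tumour and 4.68 in lymph node, 20.4-fold higher (15.4 to 27.6). Its paralogue Bnip3l differed little, at 191 against 159 CPM (1.2, 1.13 to 1.28), so Bnip3 made up 33.4% of their UMIs in tumour (32 to 34.7) and 2.87% in lymph node (2.13 to 3.76). Hilpda, a lipid droplet protein that restrains lipolysis, stood at 317 CPM in tumour and 16.3 in lymph node, 19.4-fold higher (16.7 to 22.7).

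Smaller ratios were found for Ankrd37 at 4.29, the mitochondrial protein gene Higd1a at 3.46, the mTORC1 inhibitor gene Ddit4 at 3.2, the cytokine gene Mif at 2.91, the stress gene Ndrg1 at 2.84 and the collagen hydroxylase gene P4ha1 at 2.26. Mif stood at 1227 CPM in tumour and 421 in lymph node, and Ddit4 at 340 against 106 CPM. Pdk1, whose product inhibits pyruvate dehydrogenase, went the other way, at 38.9 CPM in tumour and 62.4 in lymph node, a ratio of 0.623 (0.558 to 0.695). The angiogenic factor gene Vegfa had 9 UMIs in tumour and 0 in lymph node. With a floor of 3 UMIs over the group in place of 0 its ratio was 1.92, and the lower limit of its interval was 1.26. Adm, the adrenomedullin gene, had 1 UMI in tumour and 0 in lymph node, and no fold is given.

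At equal depth nearly all tumour cells exceeded lymph node cells in glycolysis transcripts. With each cell thinned at random to 1811 UMIs, the 17 genes had a median of 23 UMIs in a tumour cell (quartiles 16 and 31) and 5 in a lymph node cell (3 and 7). Only 10 lymph node cells (0.454%) reached the lower quartile of the tumour cells, and 56 tumour cells (3.84%) lay at or below the upper quartile of the lymph node. The hypoxia genes overlapped more, at a median of 5 UMIs in a tumour cell (3 and 7) and 1 in a lymph node cell (1 and 2), and 523 lymph node cells (23.8%) reached the tumour's lower quartile.

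**Figure D2:**
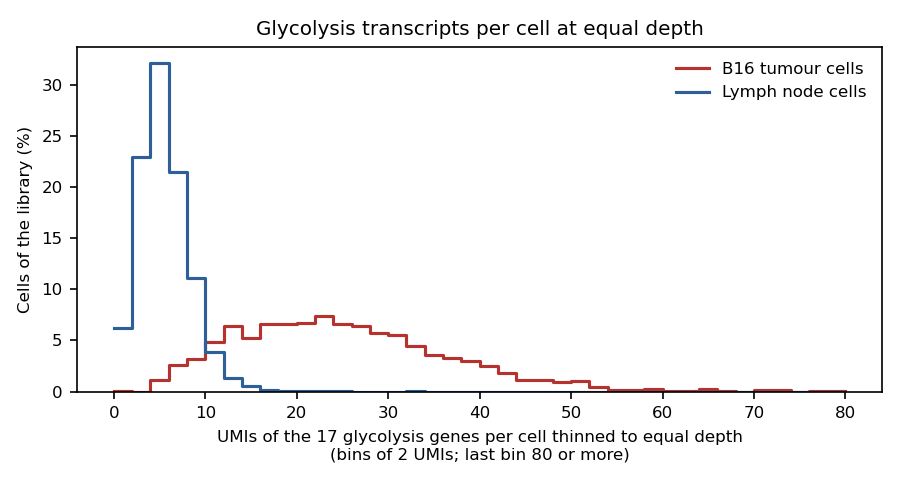
Share of each library's cells (%) by the number of glycolysis UMIs in a cell thinned to 1811 UMIs, for 1457 tumour cells (red) and 2202 lymph node cells (blue). The tumour cells spread around a median of 23 UMIs and the lymph node cells around a narrow peak at 5.

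Barcodes of at most 100 UMIs, which hold mainly RNA free in the suspension, carried the same transcripts. In tumour Ldha stood at 2627 CPM in these barcodes and 1955 in cells, Tpi1 at 1266 and 915, Hilpda at 483 and 317, and Slc16a3 at 110 and 150. Gapdh was lower there than in cells, at 3501 and 4256 CPM, as was Eno1 at 802 and 1167. Lymph node had the same directions for Ldha (828 CPM in these barcodes and 535 in cells), Tpi1 (107 and 74.2), Gapdh (638 and 864) and Eno1 (224 and 374). The melanoma gene Dct stood at 401 CPM in the tumour's free RNA and at 8.82 in its cells, and Tyrp1 at 376 and 10.1. Over the whole melanoma list the kept cells held 46.3 CPM in tumour and 1.31 in lymph node. The 16 genes of the dissociation stress list, which respond to handling, summed to 5878 CPM in tumour and 2704 in lymph node, and the 3 metallothionein and haem oxygenase genes to 212 and 7.3 CPM. Their part in the tissue ratios was not tested.

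Genes of neighbouring pathways with at least 20 UMIs are read against the same shares, which rest on all genes with at least 50 UMIs. These shares were 13.2% with 2-fold or more in tumour over lymph node and 7.7% that far below it. Among alternative isoforms and accessory genes of glycolysis, 13 of 30 had at least 20 UMIs, of which 6 lay 2-fold or more above lymph node and 1 below. They include the aldolase gene Aldoc at 48.5 CPM in tumour and 3.74 in lymph node (12.9), the transporter gene Slc2a8 (4.49), Bsg, a chaperone of the lactate carriers (2.51), and Eno1b (2.04), which is near-identical to Eno1. Of 16 genes of the pentose phosphate, glycogen and serine branches, 2 were at least 2-fold higher, the phosphoglucomutase gene Pgm2 at 2.91 and the transketolase gene Tkt at 2.07, with Pgd at 1.96 and Psat1 at 1.93 just under the line. Of 12 measured genes of pyruvate entry into the mitochondrion, 0 were at least 2-fold higher and 1 was lower, Pdk2 at 0.163. Pdha1, a subunit of pyruvate dehydrogenase, stood at 66.2 CPM in tumour and 94.6 in lymph node (0.7), and Pdk3 and the citrate synthase gene Cs had ratios of 1.89 and 1.35. Of 25 measured further hypoxia genes, 13 were at least 2-fold higher and 1 lower, among them the repressor gene Bhlhe40 at 184 CPM in tumour and 9.92 in lymph node (18.5), the oxidoreductase gene Ero1l (7.8), Stc2 (14, from 109 and 5 UMIs) and Ak4 (30.8, 5.26 to 1240, from 48 UMIs in tumour and 1 in lymph node).

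Within the tumour, cells with more hypoxia genes detected held more glycolysis transcripts. Each cell was thinned to 3834 UMIs and scored by how many of 13 hypoxia genes, the members other than Hif1a and Mif, had a UMI, a score that holds no glycolysis gene. The mean glycolysis count per cell stood at 33.8 UMIs in 44 cells with 0 of these genes, 39.6 with 1, 42.6 with 2, 47.3 with 3, 60 with 4, 64.4 with 5, 70.1 with 6 and 87.4 in 43 cells with 7 or more. The 571 hypoxia-high cells, with 4 or more, averaged 64.9 glycolysis UMIs (quartiles 46 and 81), and the 538 hypoxia-low cells, with 2 or fewer, 41 (28 and 52). Of the 1457 cells, 259 lay at the upper limit and 329 at the lower one. Across all 1457 cells, which share 1 library and 1 depth, Spearman's rho between glycolysis UMIs and hypoxia genes was 0.46 (Pearson's r 0.47).

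Cell division did not order the same cells in that way. Cycling cells had a UMI of 3 or more of 25 S phase genes or 3 or more of 25 mitosis genes, and 877 tumour cells met this, 244 of them with no gene to spare, while 297 of the other 580 fell 1 gene short. Cycling cells averaged 52.6 glycolysis UMIs and other cells 50.8, with quartiles of 37 and 66 against 30 and 65. Along the number of cell cycle genes the mean ran from 50.2 at 0 or 1 gene through 51.1, 51.3, 54.3 and 52.7 to 52.9 at 13 or more, and rho was 0.08. The 524 cells with mitosis genes averaged 53 UMIs, the 353 with S phase genes alone 51.9. Hypoxia-high cells exceeded hypoxia-low cells on both sides of the cell cycle, at 65.3 against 43.2 UMIs among cycling cells and 64.3 against 37 among other cells. Within other cells rho with hypoxia genes was 0.52 and within cycling cells 0.44. A cell's total UMIs before thinning had a rho of 0.25 with glycolysis UMIs and 0.58 with cell cycle genes. Among cells at or below the median of total UMIs, rho of glycolysis UMIs was -0.01 with cell cycle genes and 0.50 with hypoxia genes. Above that median the values were -0.10 and 0.47.

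**Figure D3:**
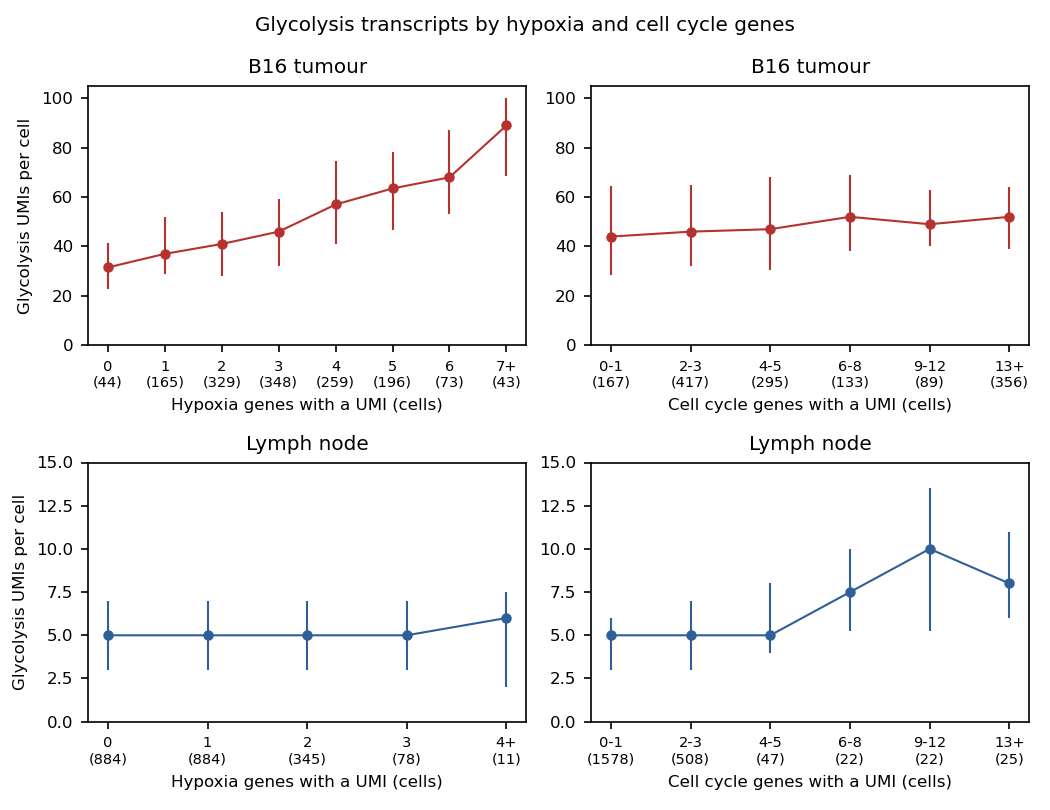
Median glycolysis UMIs per cell (points) with quartiles (bars) by the number of hypoxia genes (left) or cell cycle genes (right) with a UMI, in tumour cells at 3834 UMIs (top) and lymph node cells at 1811 UMIs (bottom), with cell numbers in parentheses. In tumour the medians climb with hypoxia genes and are nearly level with cell cycle genes. In lymph node, on a lower scale, they are nearly level with hypoxia genes. With cell cycle genes the lymph node medians stay at 5 in the first bins and are 7.5, 10 and 8 in the last ones, of 22, 22 and 25 cells.

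Gene by gene, 16 of the 17 glycolysis genes had at least 25% more CPM in hypoxia-high than hypoxia-low tumour cells, where 15.2% of 6307 genes did, and 0 had at least 20% less, where 16.3% did. Slc2a1 and Slc16a3, both transporter genes, had the largest ratios of the 17. Slc2a1 stood at 118 CPM in hypoxia-high and 37.8 in hypoxia-low cells (3.13, 2.42 to 4.08), and Slc16a3 at 241 against 95 CPM (2.53, 2.15 to 3). Hk2 followed at 2.07 (1.33 to 3.31; 8.13, 2.55 to 41.4, among cells that were not cycling, from 33 and 3 UMIs) and Slc2a3 at 1.9 (1.4 to 2.6). The lower enzymes lay closer together, from Pgam1 at 1.85 and Pgk1 at 1.78 through Eno1 at 1.68, Gapdh at 1.52 and Pkm at 1.51 to Ldha at 1.37. Tpi1 stood at 1119 against 602 CPM (1.86) and Aldoa at 2657 against 1526 CPM (1.74). The exception was Pfkfb3, with 23 UMIs in hypoxia-high and 25 in hypoxia-low cells (0.867, 0.47 to 1.59).

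Between cycling and other tumour cells, 0 of 17 were at least 25% higher, where 23.4% of 6989 genes were, and 2 were at least 20% lower, where 21% of genes were. Nearest to 25% were Ldha at 1886 CPM in cycling and 1522 in other cells (1.24, 1.19 to 1.29) and Tpi1 at 892 against 726 CPM (1.23, 1.16 to 1.31). Lower in cycling cells were Slc2a1, at 65.1 against 88.1 CPM (0.739, 0.607 to 0.901), and Pfkfb3 (0.558, 0.322 to 0.961). Gpi1 stood at 673 against 830 CPM (0.81, 0.762 to 0.862). In cells with mitosis genes set against cells with neither, 3 of 16 measured genes were at least 25% higher, Hk2 at 1.34, Tpi1 at 1.28 and Ldha at 1.27, beside 26.4% of all genes. Another 3 were at least 20% lower, Slc2a1 at 0.695, Slc2a3 at 0.748 and Gpi1 at 0.761, beside 27.4% of all genes. Without the hypoxia-high cells, 6 of 17 were at least 25% higher in cycling than other cells, where 26.1% of genes were.

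Hif1a and Mif were left out of the hypoxia score. Hif1a stood at 427 CPM in hypoxia-high and 275 in hypoxia-low cells (1.55, 1.39 to 1.72), and at 313 CPM in cycling and 408 in other cells (0.766, 0.701 to 0.838). Mif stood at 1103 CPM in hypoxia-high and 901 in hypoxia-low cells (1.22, 1.15 to 1.3), and at 1167 CPM in cycling and 711 in other cells (1.64, 1.55 to 1.74). Among cells that were not cycling, Mif stood at 889 CPM in hypoxia-high and 542 in hypoxia-low cells (1.64, 1.45 to 1.85), beside a ratio of 1.6 (1.36 to 1.88) for Hif1a. Of the 13 genes of the hypoxia score, 11 had at least 50 UMIs, and of these 6 were at least 20% lower in cycling cells and 0 at least 25% higher, beside 21% and 23.4% of all genes. Among the 6 were Ddit4 at 343 against 530 CPM (0.647) and Hilpda at 292 against 438 CPM (0.667).

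**Figure D4:**
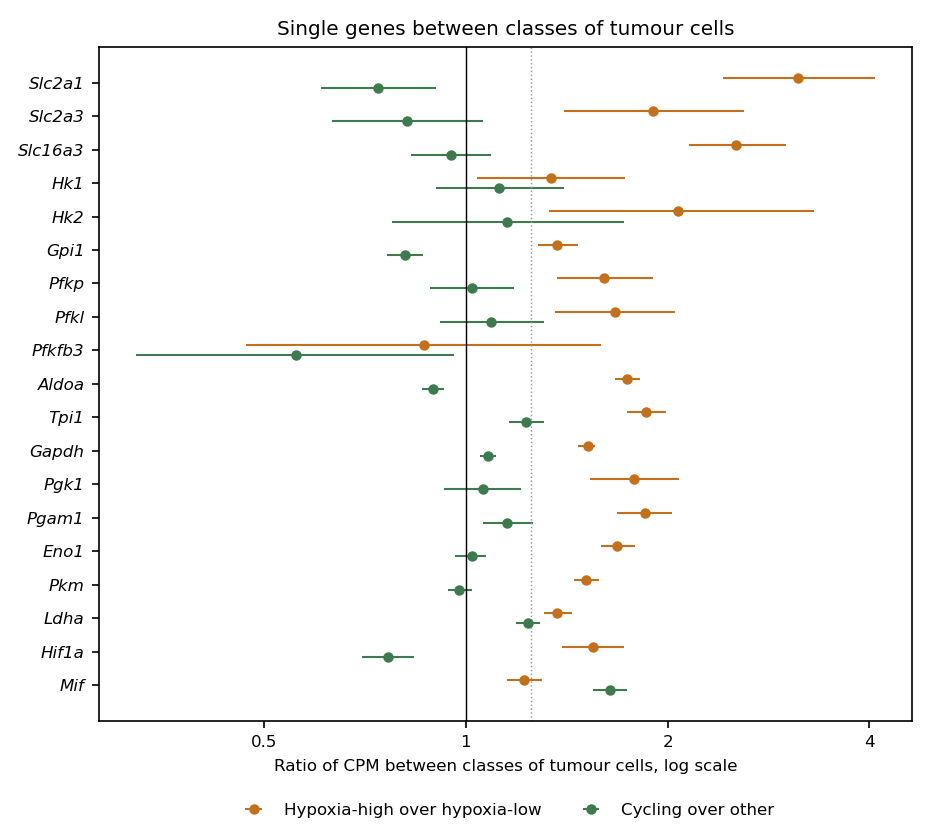
Ratio of CPM (log axis) in hypoxia-high over hypoxia-low tumour cells (orange) and in cycling over other tumour cells (green) for the 17 glycolysis genes, Hif1a and Mif, with exact 95% counting intervals; the solid line marks equality and the dotted line 25% more. Orange points lie beyond the dotted line for every glycolysis gene but Pfkfb3 and green points for none, while for Mif the green point lies beyond it and the orange point short of it.

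Among single genes with a UMI in at least 20% of thinned tumour cells, 13 of 14 glycolysis genes had a rho of at least 0.1 with the hypoxia score, where 5.59% of 2145 genes did, and 4 of 14 had one with cell cycle genes, where 18.7% did. The medians were 0.26 and 0.04. Aldoa had the highest rho with hypoxia genes (0.39), followed by Eno1 (0.36), Gapdh (0.34) and Tpi1 (0.34), while Hk1 was lowest (0.07). The 4 with cell cycle genes were Ldha (0.19), Tpi1 (0.18), Gapdh (0.14) and Pgam1 (0.12), while Gpi1 was lowest (-0.19), so single genes went both ways. With the other glycolysis genes summed, rho was 0.67 for Aldoa, 0.66 for Gapdh, 0.63 for Tpi1 and 0.62 for Pkm, against 0.11 for Hk1, whose counts per cell were low.

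Outside the 32 members, the genes most like summed glycolysis across the 1457 tumour cells were Fam162a, a mitochondrial hypoxia target (rho 0.36), Bsg (0.33), the actin gene Actg1 (0.31), Tnfrsf9, which encodes the costimulatory receptor 4-1BB (0.31), Prelid1 (0.3), Anxa2 (0.28), the polyamine enzyme gene Odc1 (0.25), Ero1l (0.24), the galactokinase gene Galk1 (0.23) and granzyme B (Gzmb, 0.22). The most opposed were Shisa5 and the nuclear RNA Malat1 (both -0.18), Izumo1r, the folate receptor 4 gene of Treg cells (-0.17), Ddx5 and Rbm39 (both -0.16). These are weak relations within 1 library and are given as a description, beside a median of about 0 over the 1980 genes compared. Tnfrsf9 and Gzmb had rho values of 0.33 and 0.23 with hypoxia genes and -0.15 and -0.11 with cell cycle genes.

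Of further hypoxia genes that no score used, 11 of 16 measured were at least 25% higher in hypoxia-high cells and 0 at least 20% lower, beside 15.2% and 16.3% of all genes. Narf, at 0.918 (0.572 to 1.47), had the lowest ratio of the 16. Ero1l stood at 136 CPM in hypoxia-high and 42.2 in hypoxia-low cells (3.23, 2.53 to 4.15), the co-repressor subunit gene Sap30 at 31.5 against 11.2 (2.83), Mxi1, a MYC antagonist, at 48.9 against 20.4 (2.4), Fam162a at 249 against 156 (1.59) and Bhlhe40 at 256 against 162 (1.58). The side branches of glycolysis divided. The glycogen branching enzyme gene Gbe1 (2.55, 1.58 to 4.26) and Pgm2 (2.19, 1.61 to 3.01) were higher in hypoxia-high cells. The serine synthesis genes Phgdh, at 98.7 against 152 CPM (0.648, 0.542 to 0.773), and Psat1, at 37 against 51.4 (0.72), and the serine hydroxymethyltransferase gene Shmt2, at 11 against 33 (0.333, 0.2 to 0.537), were lower. Among cells that were not cycling, Phgdh stood higher, at 56.8 CPM in hypoxia-high and 45.3 in hypoxia-low cells (interval of the ratio 0.802 to 1.99), and the ratios of Psat1 and Shmt2 were 0.924 (0.455 to 1.91) and 0.493 (0.175 to 1.31), so that all 3 intervals span 1. By cell cycle these 3 were higher in cycling than other cells, Phgdh at 169 against 54 CPM (3.12, 2.56 to 3.84), Psat1 at 2.77 and Shmt2 at 2.23. In all, 7 of 15 measured genes of the pentose, glycogen and serine branches were at least 25% higher in cycling cells and 1 at least 20% lower, beside 23.4% and 21% of all genes.

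Several other lists differed between the hypoxia classes. The summed S phase genes had a ratio of 0.717 and the mitosis genes 0.709 in hypoxia-high over hypoxia-low cells, and 55% of hypoxia-high and 64.7% of hypoxia-low cells were cycling. The melanoma list stood at 53 CPM in hypoxia-high and 49 in hypoxia-low cells (1.08, 0.822 to 1.43). Macrophage markers had 21 and 13 UMIs, fibroblast and endothelial markers 1 and 2, and neutrophil markers 0 and 0. The CD8 markers had 64 and 36 UMIs (1.68, 1.1 to 2.59). The dendritic list had 155 and 67 UMIs (2.18, 1.63 to 2.95). Its sum over all tumour cells came nearly all from H2-Ab1 and H2-Aa, and Flt3 and Clec9a were at 0. Dissociation stress genes had a ratio of 1.2 and metallothionein genes 2.73, and the Treg list 1.34. The part of the stress, metallothionein, class II and CD8 genes in the glycolysis ratio was not tested.

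In the lymph node the order was the reverse, on far fewer counts. At 1811 UMIs the 164 cycling cells averaged 7.32 glycolysis UMIs and the 2038 other cells 4.94, a ratio of 1.48 (1.39 to 1.57), and 8 of 13 measured glycolysis genes were at least 25% higher in cycling cells, where 34.3% of 5950 genes were. Only Slc2a3 of the 13 was at least 20% lower (0.714, from 5 and 87 UMIs), where 23.5% of genes were. Tpi1 stood at 148 CPM in cycling and 43.9 in other lymph node cells (3.38, 2.36 to 4.74), Gapdh at 1239 against 647 (1.92), Pkm at 589 against 383 (1.54) and Ldha at 690 against 478 (1.44). Slc16a3 had 1 UMI in the cycling and 16 in the other cells. Lymph node cells with 2 or more hypoxia genes averaged 5.18 glycolysis UMIs and those with 0 had 5.06, a ratio of 1.02 (0.973 to 1.08), and rho was 0.02 with hypoxia genes and 0.15 with cell cycle genes. With tumour cells thinned to the same 1811 UMIs, an alternative added after the data were seen, the ratios were 1.06 (1.03 to 1.08) by cell cycle and 1.49 (1.43 to 1.54) by hypoxia genes, and rho was 0.07 and 0.37. A lymph node cell had UMIs of 0.841 hypoxia genes on average and a tumour cell of 1.96, so the hypoxia score has less range in lymph node. The difference between the tissues in these relations was not tested.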

How the data were processed

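Droplet 3′ single-cell RNA libraries, 1 of tumour and 1 of lymph node, were deposited as raw UMI counts per gene and barcode, unfiltered, with no normalization by the authors. Per the submitters' processing notes Cell Ranger and mm10 were used, with no version given in the sources used here. The matrices held 23618037 UMIs in tumour and 14000036 in lymph node.

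The UMI minimum of a library was 10% of the 99th percentile of its 3000 largest barcodes. Kept barcodes also had at least 200 genes, at most 10% mitochondrial UMIs, fewer than 20 Pmel, Dct and Mlana UMIs, fewer than 3 C1qa, C1qb and Lyz2 UMIs and fewer than 2 Cd79a and Ms4a1 UMIs. Doublets were kept. Counts were summed over cells and divided by their total (CPM). Ratios carry exact conditional-binomial 95% intervals, sums exact Poisson and shares Clopper-Pearson ones, all for counting error only. A ratio against 0 uses a floor of 3 UMIs over the group. Genes with at least 50 UMIs over the groups compared gave the background shares. For shares and classes each cell was thinned at random to its library's minimum, or to 1811 UMIs for both tissues, which lost no cell. Hypoxia-high and hypoxia-low cells lie at or beyond the 75th and 25th percentiles of hypoxia genes detected. The ratio step was tested on simulated data.

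Named were all 32 members, up to 4 genes of each neighbouring pathway list with the largest ratio by the interval bound nearest to 1 (at least 20 UMIs), and the 10 genes most and 5 least like summed glycolysis (Spearman, in at least 20% of cells, without mitochondrial and ribosomal genes). Genes named beyond these, such as those by class of cell, were chosen after their values were seen. The members and lists were chosen with earlier results of these data known. Alternatives covered scaling (TMM from edgeR 4.0.16 and a median of ratios), thinning, filters, free RNA and class rules. Python 3.11.15, numpy 2.4.6, scipy 1.17.1 and R 4.3.3 were used.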

Additional observations from a re-analysis of the deposited data

Results flagged for a closer look

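The tumour library's barcodes of at most 100 UMIs, which were not kept as cells, held 2 hypoxia genes that its cells nearly lacked. Vegfa stood at 3.58 CPM there (14 UMIs), against 0.54 CPM in the tumour cells and 0 CPM in the matching lymph node barcodes. Adm stood at 2.81 CPM there (11 UMIs), against 0.06 CPM in the tumour cells and 0 CPM in the matching lymph node barcodes. Among the further hypoxia genes, Car9 stood at 52.4 CPM there (205 UMIs), against 1.32 CPM in the tumour cells and 0.37 CPM in the matching lymph node barcodes. P4ha2 stood at 4.09 CPM there (16 UMIs) against 0.36 CPM in the tumour cells, and Selenbp1 at 12 CPM (47 UMIs) against 4.44 CPM. These values are given as measured, and those of Vegfa, Adm and P4ha2 rest on few UMIs.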

How the results depend on the processing

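Between the tissues, the number of glycolysis genes at least 2-fold higher in tumour ranged from 14 to 17 over 12 alternatives and that of hypoxia genes from 11 to 13, and no member's ratio changed sign. Scaling by TMM shifted every log2 ratio by -0.10 and by the median of ratios by -0.08. The number of glycolysis genes at least 25% higher in hypoxia-high than hypoxia-low tumour cells ranged from 15 to 17. The number higher in cycling than other tumour cells, 0 as reported, was 2 with no thinning, 3 with cells thinned to 1811 UMIs, 3 in cells with no melanoma UMI, 1 in cells at or below the median UMIs, 2 with cycling set at 5 or more genes, 1 with mitosis genes only and 6 without hypoxia-high cells, where 26.1% of all genes passed. Of 20 log2 ratios of cycling over other tumour cells (19 genes and summed glycolysis), 13 had the other sign in at least 1 alternative, in 28 of 240 values, so these 13 have no stable direction. The ratios of Gpi1, Pfkfb3, Aldoa, Tpi1, Ldha, Mif and Hif1a kept their sign throughout. In 4 of the 13 the reported counting interval lay wholly on 1 side of equality, and their values of the other sign, 5 in all, came from cells split at the median UMIs: Slc2a1 0.16 and Gapdh -0.03 at or below it, and summed glycolysis -0.14, Gapdh -0.08 and Pgam1 -0.10 above it. The cause was not tested. No paired analysis was possible because each group holds 1 library. Genes of few UMIs, such as Pfkfb3, Hk2 and Egln3, are limited by depth.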
